A study of Mus musculus with 20 samples.

Results

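Transducin is the G protein of the light response, and the results below follow the genes of its rod form (Gnat1, Gnb1 and Gngt1), of its cone form (Gnat2, Gnb3 and Gngt2), and of phosducin (Pdc), which binds transducin's beta and gamma subunits. They were chosen by name: a probe set counted as a member when the platform table gave it exactly 1 of these 7 gene symbols. This found 7 of the 35557 deposited probe sets, 1 for each gene. They are 7 of the 19938 genes with a probe set of their own, and all 7 passed the filter on low values, which left 15057 genes. The values came from 20 Affymetrix arrays of mouse retina, hybridised with biotinylated cRNA made by a 2-cycle labelling protocol. The layers had been cut out by laser capture microscopy, in which cells are lifted from a section under the microscope. They were the photoreceptor layer (nuclei of the outer nuclear layer with the outer and inner segments), the ganglion cell layer, and between them the inner nuclear and inner plexiform layers. The whole retina was measured too. All mice were adult C57BL/6 animals of 7 to 8 weeks. One arm had been light adapted for 6 h in a room at 450 lux. The other had been dark adapted for 3 h at no more than 0.4 lux. There were 10 groups, 5 tissues by 2 adaptations, with 2 arrays in each. Which animals stood behind an array, and whether they were pooled, is not in the labels. The p-values therefore reflect the spread among the arrays as deposited, and that spread may be technical.

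In a photoreceptor, light-activated opsin makes the transducin alpha subunit release GDP, bind GTP and leave its beta-gamma partner. The free alpha subunit then relieves the inhibition of a cGMP phosphodiesterase, cGMP falls, and cGMP-gated channels close. Rods and cones build this switch from different genes for each subunit, although Gnb1 is also used by many other cell types and Gnb3 by ON bipolar cells. Phosducin holds the free beta-gamma pair, and in rods it takes part in the movement of transducin out of the outer segment in bright light.

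The start regions of 4 members are shown, since all 4 were higher in the photoreceptor layer although Gnb1 is widely used and the others are photoreceptor genes. Gnat1, Gnb3 and Gngt2 have no entry in the promoter table used. Each line gives the 250 bases before the annotated start of the gene, on the gene's own strand, which was the plus strand for all 4, from RefSeq on mouse build GRCm38.p6. The positions are chr3:108092816-108093065 for Gnat2, chr6:3993758-3994007 for Gngt1, chr1:150319167-150319416 for Pdc and chr4:155491111-155491360 for Gnb1. Capitals mark matches to the searched motifs.
Gnat2: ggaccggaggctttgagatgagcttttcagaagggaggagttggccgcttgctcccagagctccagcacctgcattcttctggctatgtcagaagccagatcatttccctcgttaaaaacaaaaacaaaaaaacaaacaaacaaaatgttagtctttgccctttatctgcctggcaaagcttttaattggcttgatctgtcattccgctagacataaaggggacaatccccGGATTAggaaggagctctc
Gngt1: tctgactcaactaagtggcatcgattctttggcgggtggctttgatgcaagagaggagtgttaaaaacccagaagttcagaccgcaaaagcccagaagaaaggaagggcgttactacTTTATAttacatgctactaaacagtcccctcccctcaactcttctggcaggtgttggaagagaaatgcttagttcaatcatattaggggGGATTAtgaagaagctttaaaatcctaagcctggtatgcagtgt
Pdc: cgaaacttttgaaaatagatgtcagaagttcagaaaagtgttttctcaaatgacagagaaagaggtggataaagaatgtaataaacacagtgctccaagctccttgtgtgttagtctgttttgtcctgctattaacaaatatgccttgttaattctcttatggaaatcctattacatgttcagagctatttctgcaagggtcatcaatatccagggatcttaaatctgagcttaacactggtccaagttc
Gnb1: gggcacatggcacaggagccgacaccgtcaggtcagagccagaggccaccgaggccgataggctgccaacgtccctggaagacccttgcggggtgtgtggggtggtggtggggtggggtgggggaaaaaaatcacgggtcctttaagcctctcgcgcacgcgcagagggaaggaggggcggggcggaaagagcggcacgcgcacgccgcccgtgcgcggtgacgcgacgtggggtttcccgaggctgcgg
The letters searched, on both strands, were TAATCC (the core bound by the photoreceptor homeobox factor CRX), TGCTGA (a common form of the core bound by the rod factor NRL) and TATAAA (the TATA box). The upstream windows of Gnat2 and Gngt1 each held GGATTA, the reverse complement of TAATCC. It lay 19 to 14 bases before the start of Gnat2 and 44 to 39 bases before that of Gngt1. Gngt1 also held TTTATA, the reverse complement of TATAAA, 133 to 128 bases before its start. No match to these letters was found in the windows of Pdc and Gnb1. Over all 32851 windows of the same length, 6.3% held TAATCC, 16.1% TGCTGA and 12.4% TATAAA on either strand, so such matches are common and are given as a description only. The bases of the Gnb1 window were 69.2% G or C, against 36.4% for Pdc.

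The labelled photoreceptor, ganglion cell and inner nuclear layers were checked against cell type markers before the members were read. All 13 measured rod marker genes were higher in the photoreceptor layer than in the other layers. Their summed intensity was 8742 to 9589 on its 4 arrays and 1263 to 2872 on the 12 arrays of the inner layers, so rod marker signal was also measured there. Summed ganglion cell markers (11 genes) reached 2269 to 3741 in the ganglion cell layer against 633.6 to 662.9 in the photoreceptor layer, and bipolar markers (12 genes) 1935 to 2696 in the inner nuclear layer against 1559 to 1692. The inner plexiform layer had no marker list of its own. Of the bipolar markers, Trpm1, Scgn and Prkca were higher in the inner nuclear than in the inner plexiform layer (log2 differences of 1.18, 1.30 and 0.96). The others did not pass, and Grm6 was at -0.43. The 30 Y-linked probe sets had a median of 192 to 306 on 5 light-adapted arrays (replicate 1 of the photoreceptor layer, inner nuclear layer and whole retina, and both of the ganglion cell layer) and 8.6 to 25.1 on the other 15. Among the layer arrays, both light-adapted inner plexiform arrays had the lowest median correlations to arrays of other groups, 0.74 and 0.77, against 0.82 to 0.88 for the other 14. The whole retina arrays gave 0.72 to 0.82. In layers cut from tissue, fewer cells of a type and less RNA per cell cannot be told apart.

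The first question was where each subunit's RNA lay. Intensities are GCRMA values on a linear scale, and differences are on the log2 scale with values under 8 set to 8. With limma's moderated test and Benjamini-Hochberg adjustment over 15057 genes, 6 of the 7 members were higher in the photoreceptor layer than in the mean of the other 3 layers, and none was lower. For comparison, 12.9% of all genes passed in either direction and 7.26% were higher. The median difference of the 7 members was 2.26, against -0.06 for all genes. The differences ran from 2.98 for Pdc down to 0.27 for Gngt2. For 5 members (Gnat1, Gnb1, Gngt1, Pdc and Gnat2) all 4 photoreceptor arrays lay above all 12 arrays of the inner layers, which 3.49% of all genes showed.

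**Figure D1:**
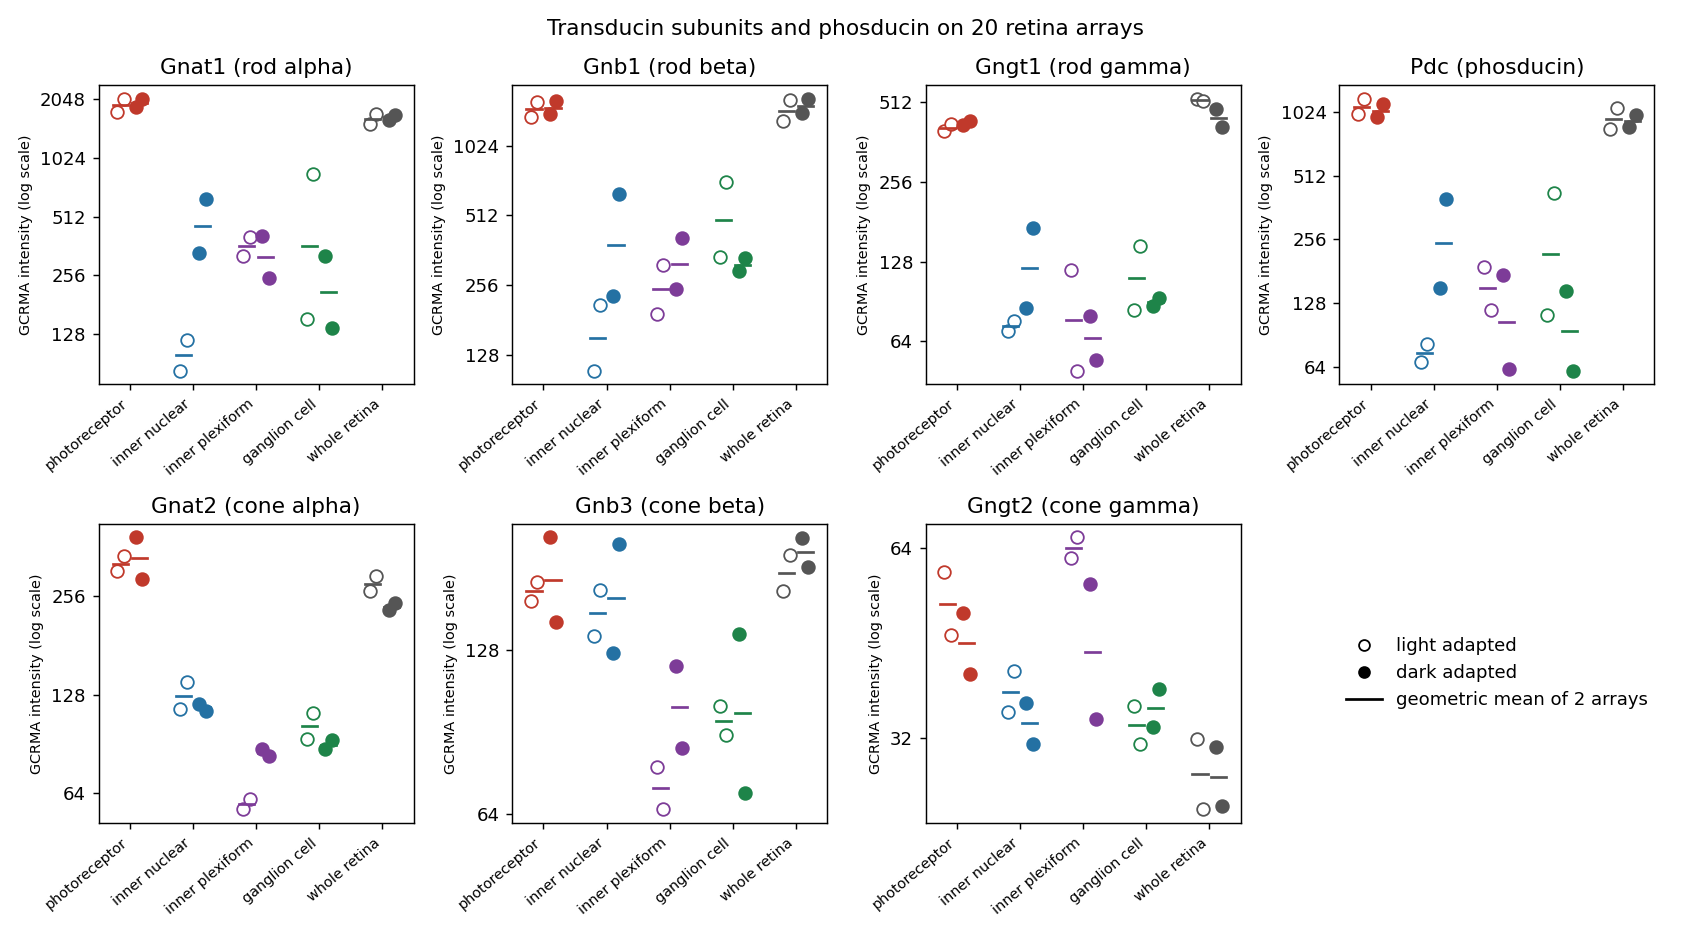
Intensity of each of the 7 genes (log axis) on every array, by tissue; open circles are light-adapted arrays, filled circles dark-adapted arrays, and bars the geometric mean of the 2 arrays of a group. Gnat1, Gnb1, Gngt1 and Pdc were high on all photoreceptor and whole retina arrays and varied widely in the inner layers, and Gnat2 varied less there. Photoreceptor layer values of Gnb3 overlapped with those of the inner nuclear layer and whole retina. Those of Gngt2 overlapped with the inner nuclear and inner plexiform layers.

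Gnat1 encodes the rod alpha subunit, which carries the GTPase. Its intensity in the photoreceptor layer was 1758 and 2063 in light and 1870.4 and 2053 in dark. The whole retina gave 1524 and 1709 in light and 1609 and 1695 in dark. In the inner nuclear layer it read 82.9 and 119 in light and 335 and 633 in dark. The inner nuclear arrays thus differed several-fold among themselves, and the dark-adapted pair was the higher. The inner plexiform arrays gave 322 and 404 in light and 406 and 248 in dark. Ganglion cell layer values were 153 and 843 in light and 322 and 138 in dark. Replicate 2 of the light-adapted ganglion cell layer stood above the other 3 arrays of that layer. The order of the 5 tissues by mean was photoreceptor layer, whole retina, inner plexiform, ganglion cell and inner nuclear layer. The 4 arrays of the first 2 did not overlap with each other or with the next, and the 3 inner layers all overlapped. Whole retina minus photoreceptor layer was -0.24 ± 0.39 and did not pass (adjusted p = 0.677, limma). All whole retina arrays lay below all photoreceptor arrays for 14% of all genes. Gnat1 was higher in the photoreceptor layer than in the other layers by 2.83 ± 0.32 (SE; adjusted p = 1.01e-05, limma). The difference was 3.18 ± 0.39 against the inner nuclear, 2.51 ± 0.39 against the inner plexiform and 2.81 ± 0.39 against the ganglion cell layer. Against the inner nuclear layer it was 4.26 with the light-adapted arrays alone (adjusted p = 0.00139) and 2.09 with the dark-adapted arrays alone (adjusted p = 0.0296). Over the 3 layers together it was 3.02 with the light-adapted arrays alone and 2.65 with the dark-adapted arrays alone, and it passed the test in both.

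Gnat2, the cone alpha subunit, was lower in the inner layers but spread much less there. Photoreceptor layer intensities were 304 and 339 in light and 386 and 288 in dark. The whole retina had 264 and 293 in light and 232 and 243 in dark. In the inner nuclear layer the arrays read 115 and 140.0 in light and 119.5 and 114 in dark. These 3 tissues did not overlap, except that the lowest photoreceptor array lay below the highest whole retina array. The ganglion cell layer gave 93.9 and 112 in light and 87.3 and 92.9 in dark. The inner plexiform layer was lowest, at 57.1 and 61.5 in light and 87.1 and 83.2 in dark. The inner nuclear, ganglion cell and inner plexiform layers followed in that order, with no overlap between neighbours. Neither step passed the test, and the share of all genes with such orders was not computed. Inner nuclear minus ganglion cell layer was 0.34 ± 0.13 (adjusted p = 0.528, limma). Inner plexiform minus ganglion cell layer was -0.44 ± 0.13 (adjusted p = 0.0832, limma). Gnat2 was higher in the photoreceptor layer by 1.80 ± 0.11 (adjusted p = 1.63e-08, limma), with 1.42 ± 0.13, 2.20 ± 0.13 and 1.77 ± 0.13 against the inner nuclear, inner plexiform and ganglion cell layers. Under all 34 other settings tried, leaving out each array included, this value stayed between 1.63 and 1.90 and passed the test. Whole retina minus photoreceptor layer was -0.35 ± 0.13 (adjusted p = 0.10), which did not pass.

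Gnb1, the beta subunit of rod transducin and of many other G proteins, was high in the photoreceptor layer and in the whole retina alike. Photoreceptor layer values were 1367 and 1589 in light and 1399.6 and 1603 in dark. Whole retina values were 1309 and 1609 in light and 1414 and 1639.7 in dark. Ganglion cell layer arrays had 338 and 711 in light and 293 and 335 in dark. The photoreceptor and whole retina arrays overlapped, and both lay above every inner layer array. The inner plexiform layer gave 192 and 312 in light and 246 and 408 in dark. The inner nuclear layer gave 109 and 210.1 in light and 229 and 633 in dark. The 3 inner layers overlapped with one another. The photoreceptor layer exceeded the other layers by 2.32 ± 0.25 (adjusted p = 6.06e-06, limma). By layer the difference was 2.63 ± 0.30 against the inner nuclear, 2.41 ± 0.30 against the inner plexiform and 1.92 ± 0.30 against the ganglion cell layer. The first was 3.28 with the light-adapted arrays alone and 1.98 with the dark-adapted arrays alone, and it passed in both. The last was 1.59 (adjusted p = 0.054, not past the threshold) with the light-adapted arrays alone and 2.26 with the dark-adapted arrays alone.

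Gnb3, the cone beta subunit, which also serves the ON bipolar cascade, showed no such step at the inner nuclear layer. The photoreceptor layer gave 158 and 171 in light and 206 and 144 in dark. In the whole retina it read 164 and 191 in light and 206 and 182 in dark. The inner nuclear layer gave 136 and 165 in light and 126 and 201 in dark. These 3 tissues overlapped. The inner plexiform arrays read 77.9 and 65.2 in light and 119.5 and 84.6 in dark. Those of the ganglion cell layer read 101 and 89.2 in light and 137 and 69.9 in dark. Photoreceptor minus inner nuclear layer was 0.12 ± 0.21 (adjusted p = 0.84), with a 95% interval from -0.32 to 0.57. Against the inner plexiform layer Gnb3 was higher by 0.99 ± 0.21 (adjusted p = 0.00362) and against the ganglion cell layer by 0.80 ± 0.21 (adjusted p = 0.0248). Its difference from the 3 other layers together was 0.64 ± 0.17 (adjusted p = 0.0203, limma). That call was lost without the arrays with Y-linked signal (0.64, adjusted p = 0.141), without the light-adapted inner plexiform arrays (0.56, adjusted p = 0.068), and without photoreceptor array light 1 (adjusted p = 0.064), light 2 (adjusted p = 0.096) or dark 1 (0.51, adjusted p = 0.143). It was also lost within the dark-adapted (0.57, adjusted p = 0.342) and within the light-adapted arrays (0.71, adjusted p = 0.051). The call against the ganglion cell layer was lost in 9 of its 34 alternatives, among them those without the 5 arrays with Y-linked signal (0.81, adjusted p = 0.236) and without photoreceptor array light 1, light 2 or dark 1 or ganglion cell array light 2 or dark 2 (0.56 to 0.83, adjusted p 0.061 to 0.138). That against the inner plexiform layer was lost in 2, one of them without the light-adapted arrays of that layer (0.74, adjusted p = 0.117).

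Gngt1 encodes the rod gamma subunit, a small farnesylated protein that ties the beta subunit to the membrane. Photoreceptor layer intensities were 399 and 422 in light and 419 and 434 in dark. Whole retina intensities were 528 and 519 in light and 480.4 and 413 in dark. The ganglion cell layer read 84.3 and 147 in light and 86.7 and 93.3 in dark. Photoreceptor and whole retina arrays overlapped and lay above all inner layer arrays. In the inner nuclear layer the values were 70.2 and 76.7 in light and 85.2 and 171 in dark. In the inner plexiform layer they were 119 and 49.6 in light and 79.6 and 54.6 in dark. The 3 inner layers overlapped. Gngt1 was higher in the photoreceptor layer than in the others by 2.26 ± 0.21 (adjusted p = 1.49e-06, limma), and by 2.15 ± 0.26, 2.56 ± 0.26 and 2.06 ± 0.26 against the inner nuclear, inner plexiform and ganglion cell layers.

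Gngt2, the cone gamma subunit, was dim everywhere. The photoreceptor layer gave 58.6 and 46.6 in light and 50.5 and 40.4 in dark. The inner plexiform layer gave 61.7 and 66.6 in light and 56.1 and 34.2 in dark. The inner nuclear layer gave 35.1 and 40.8 in light and 36.3 and 31.3 in dark. For scale, the median intensity of all probe sets on an array was 37.5 to 40.8, and Gngt2 was above the filter's level (log2 over 5) on 14 of the 20 arrays and below it on all 4 of the whole retina. Arrays of the ganglion cell layer read 35.9 and 31.3 in light and 33.3 and 38.2 in dark. The whole retina read 31.8 and 24.6 in light and 30.9 and 24.9 in dark. No neighbours in the order of the 5 tissues were free of overlap, and the highest group was the light-adapted inner plexiform layer. The difference between the photoreceptor layer and the others was 0.27 ± 0.15 (adjusted p = 0.267, limma), with a 95% interval from -0.049 to 0.59. By layer it was 0.44 ± 0.19 (adjusted p = 0.23) against the inner nuclear, -0.13 ± 0.19 (adjusted p = 0.667) against the inner plexiform and 0.49 ± 0.19 (adjusted p = 0.136) against the ganglion cell layer. The second of these was 0.15 without the light-adapted inner plexiform arrays.

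Pdc, phosducin, had the largest photoreceptor layer difference of the 7. Photoreceptor layer values were 996 and 1184 in light and 969.5 and 1114 in dark. Whole retina values were 848 and 1066 in light and 872 and 994 in dark. The inner nuclear layer gave 67.6 and 82.3 in light and 150.2 and 399 in dark. The last of these, dark-adapted replicate 2, was well above the other inner nuclear arrays. The inner plexiform layer gave 189 and 119 in light and 174 and 62.3 in dark. The ganglion cell layer gave 112 and 426 in light and 147 and 61.2 in dark. Photoreceptor and whole retina arrays overlapped and lay above all inner layer arrays, which overlapped with one another. The difference was 2.98 ± 0.33 (adjusted p = 9.13e-06, limma), and 2.97 ± 0.40, 3.09 ± 0.40 and 2.89 ± 0.40 against the inner nuclear, inner plexiform and ganglion cell layers. Against the inner nuclear layer it was 3.86 with the light-adapted arrays alone and 2.09 with the dark-adapted arrays alone, where it did not pass (adjusted p = 0.115).

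**Figure D2:**
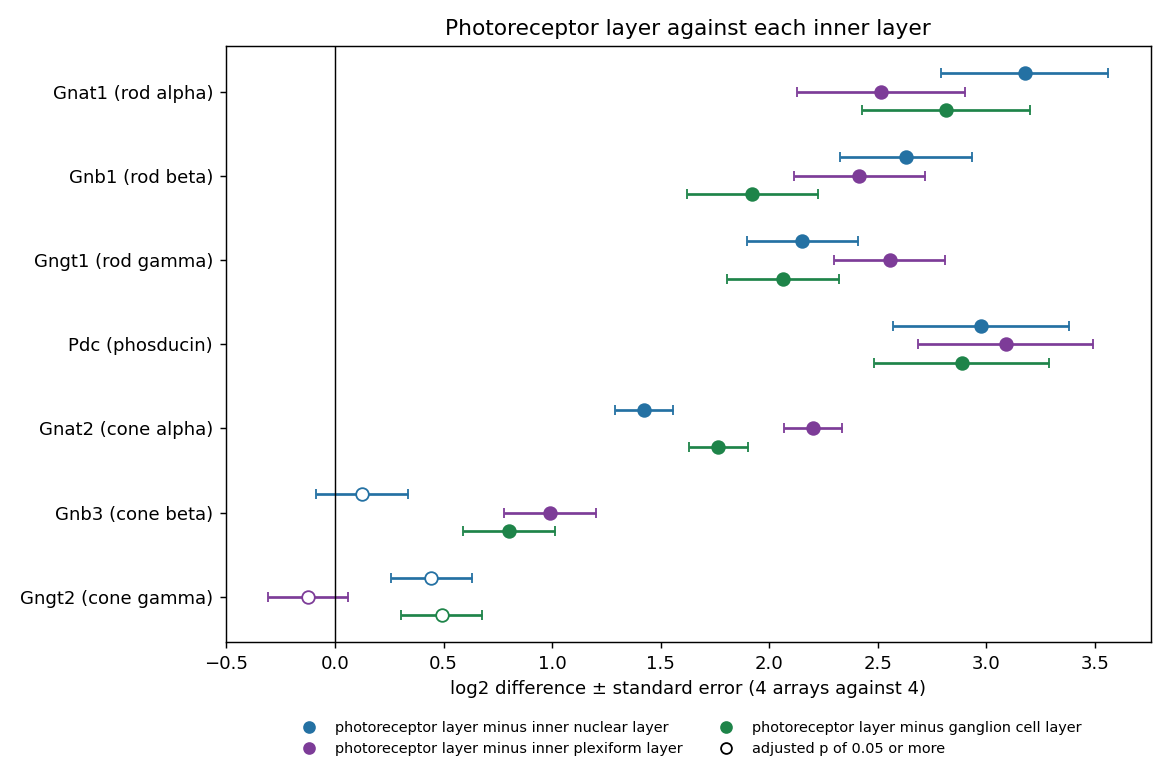
Photoreceptor layer minus each inner layer on the log2 scale (horizontal axis) for the 7 genes, as points with the standard error of the limma fit, 4 arrays against 4; open points did not pass an adjusted p of 0.05. The 4 genes of rod transducin and phosducin lay between 1.92 and 3.18 in all 3 comparisons, Gnat2 between 1.42 and 2.20, and Gnb3 and Gngt2 between -0.13 and 0.99.

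Counted by layer, 5 members were higher in the photoreceptor than in the inner nuclear layer, where 5.33% of all genes passed in either direction and 4.07% were higher. In the comparison with the inner plexiform layer 6 members were higher (21.4% of all genes in either direction, 9.68% higher). Against the ganglion cell layer 6 were higher (7.66% in either direction, 4.57% higher). Gngt2 was the member missing from all 3 counts, and Gnb3 was also missing from the first.

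Between inner layers, the cone alpha and beta genes were the only members that passed. From the inner plexiform to the inner nuclear layer 2 of the 7 members were higher, where 4.85% of all genes passed in either direction and 1.62% were higher. These were Gnat2 (0.78 ± 0.13, adjusted p = 0.00538, limma) and Gnb3 (0.87 ± 0.21, adjusted p = 0.0275). The Gngt2 value was -0.57 ± 0.19 (adjusted p = 0.0885), the opposite sign. Without the light-adapted inner plexiform arrays neither gene passed: Gnat2 was 0.52 (adjusted p = 0.316) and Gnb3 0.62 (adjusted p = 0.485). Only 6 of all 15057 genes passed this comparison without those arrays, against 730 with them. Among the dark-adapted arrays alone the values were 0.46 (adjusted p = 0.625) and 0.66 (adjusted p = 0.674). The Gnb3 call was also lost without inner nuclear array light 1, light 2 or dark 2 or inner plexiform array light 2 or dark 2 (0.70 to 0.94, adjusted p 0.057 to 0.113), and without the arrays with Y-linked signal (0.94, adjusted p = 0.0996). With the 8 arrays of this comparison alone neither gene passed (adjusted p = 0.0586 for Gnat2 and 0.0731 for Gnb3). No member passed between the inner nuclear and ganglion cell layers (0.458% of all genes passed). An unadjusted p under 0.05 (limma) was seen there for 3 members and for 1100 of all 15057 genes. Nor did a member pass between the ganglion cell and inner plexiform layers (3.1% of all genes passed). There 2 members and 2917 of all genes had an unadjusted p under 0.05 (limma). Without dark-adapted replicate 2 of the inner plexiform layer, Gngt2 passed both in inner nuclear minus inner plexiform layer (-0.75, adjusted p = 0.0335) and in inner plexiform minus ganglion cell layer (0.79, adjusted p = 0.0299).

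The ON bipolar cascade, in which Gnb3 works with the alpha subunit Gnao1 and the gamma subunit Gng13 behind the glutamate receptor Grm6, was set beside these values. In the comparison of the inner nuclear with the inner plexiform layer 2 of its 10 measured genes were higher and none lower: the channel Trpm1, closed by this cascade, by 1.18 ± 0.18 (adjusted p = 0.00202) and the regulator Rgs11 by 0.82 ± 0.16 (adjusted p = 0.010). The median of the 10 was 0.20, against -0.01 for all genes. Grm6 was -0.43 ± 0.18 (adjusted p = 0.175) and Gnao1 0.26 ± 0.31 (adjusted p = 0.67). In the photoreceptor layer against the inner nuclear layer, where Gnb3 gave 0.12, Trpm1 (-1.69 ± 0.18), Gnao1 (-1.93 ± 0.31) and Grm6 (-0.98 ± 0.18) were lower, and all 3 passed (limma).

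The whole retina, which holds all layers, was compared with the photoreceptor layer. Only Gngt2 passed, being lower in the whole retina by 0.80 on the log2 scale (-0.80 ± 0.18, adjusted p = 0.0151, limma); 10.4% of all genes passed, and the median of all genes was -0.13. All 4 whole retina arrays of Gngt2 lay below all 4 photoreceptor arrays, as for 14% of all genes. Since all 4 whole retina values were under the filter's level and below the median intensity of an array, the size of this difference is uncertain. The call was lost without the arrays with Y-linked signal (adjusted p = 0.0604), without photoreceptor array light 1 or dark 1 or whole retina array light 2 or dark 2 (-0.71 to -0.72, adjusted p 0.064 to 0.095), and within the light-adapted (-0.90, adjusted p = 0.132) and the dark-adapted arrays alone (-0.70, adjusted p = 0.275). For Gnb1, Gngt1 and Gnb3 the whole retina had the highest mean of the 5 tissues, with arrays that overlapped those of the photoreceptor layer.

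In the next step each rod subunit was set against its cone counterpart on the same array, as the difference of their log2 intensities. Such a difference between genes has no meaning as a level, since probe sets differ in response, so only its change between tissues was tested. The test was an exact two-sided permutation of the photoreceptor layer label over single arrays within each adaptation. It had 784 arrangements and a smallest possible p of 0.00128, and p-values were adjusted over 20 such tests. Arrays of a layer were exchanged singly, so these p-values reflect the spread among arrays. The gamma pair, Gngt1 minus Gngt2, was higher in the photoreceptor layer by 1.99 (exact permutation p = 0.00128, adjusted p = 0.0085), and the beta pair, Gnb1 minus Gnb3, by 1.68 (exact permutation p = 0.0051, adjusted p = 0.0171). The alpha pair, Gnat1 minus Gnat2, gave 1.04 and did not pass (exact permutation p = 0.0969, adjusted p = 0.252). All 3 were positive within both the light-adapted and the dark-adapted arrays. The gamma pair's change lay mostly in Gngt1, which itself differed by 2.26. The dim Gngt2 differed by 0.27 and did not pass, so this pair adds little to the Gngt1 result. The beta pair's call was lost without photoreceptor array light 1, light 2 or dark 2 (1.51 to 1.71, adjusted exact permutation p = 0.068).

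The rod genes were also read against the rod content of each array, taken as the median log2 intensity of 13 rod marker genes such as Pde6b, Cnga1 and Sag, none of them a member. That median was 9.44 to 9.60 in the photoreceptor layer and 9.12 to 9.34 in the whole retina. In the inner layers it ran from 5.94 to 7.82. Over the 12 inner layer arrays, Gnat1 and Pdc followed it closely, with Pearson correlations of 0.94 and 0.93 (Spearman 0.87 and 0.94). Gngt1 (0.61; Spearman 0.57) and Gnb1 (0.56; Spearman 0.29) followed it less closely. Gnat2 gave -0.14, Gnb3 0.17 and Gngt2 -0.01. These correlations describe 12 arrays that share the cut of the section, the labelling and the normalization, and each group holds 2 of them. No pooled value over all 20 arrays is given, since photoreceptor and whole retina arrays formed a cluster of their own.

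**Figure D3:**
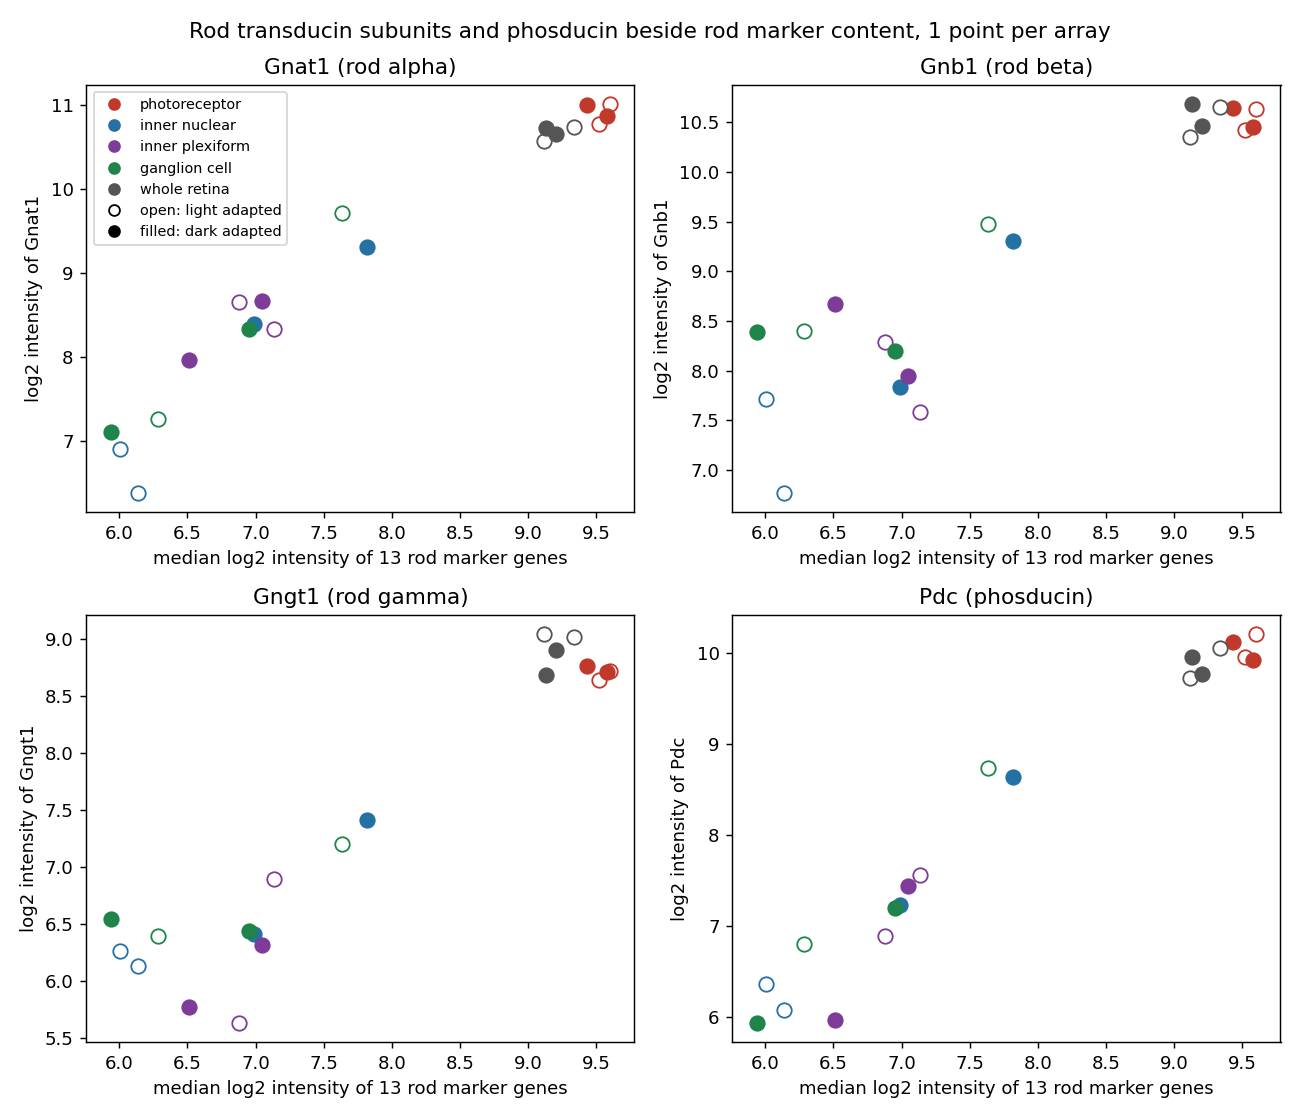
Log2 intensity of Gnat1, Gnb1, Gngt1 and Pdc (vertical axes) against the median log2 intensity of 13 rod marker genes (horizontal axes), 1 point per array, coloured by tissue, open for light and filled for dark adaptation. The photoreceptor and whole retina arrays lay to the right of 9, and in the inner layers Gnat1 and Pdc followed the rod marker axis from 5.94 to 7.82 more tightly than Gnb1 and Gngt1.

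Taken relative to that rod content, none of the 4 genes differed between the photoreceptor layer and the other layers past the threshold. Gnat1 minus the rod markers differed by 0.08 (adjusted exact permutation p = 0.799) and Pdc by 0.23 (adjusted exact permutation p = 0.561). Gnb1 and Gngt1 differed by -0.43 and -0.50 (adjusted exact permutation p = 0.439 and 0.252). Cone genes were treated alike, against the median of 7 cone markers. Gnat2 differed by -0.20 (adjusted exact permutation p = 0.606). Relative to the cone markers, Gnb3 differed by -1.36 and Gngt2 by -1.73 (both adjusted exact permutation p = 0.0085, the raw p being the smallest the test can give). The Gnb3 and Gngt2 values were negative within light and within dark adaptation. Neither gene was itself lower in the photoreceptor layer (0.64 for Gnb3 and 0.27 for Gngt2). The cone marker median was 6.47 to 7.54 in that layer. In the inner layers it was 4.56 to 5.44, around the filter's level (log2 of 5). The cone marker gene Opn1sw lay at the floor on all 4 ganglion cell layer arrays.

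The second question was whether the members differed between dark and light adaptation. None of the 7 passed in any tissue, on average over the 5 tissues, or in the F test for a difference in the dark effect between tissues. The share of all genes that passed was small too: 0.0465% for photoreceptor layer arrays, 0% in the inner nuclear and 1.83% in the inner plexiform layer, 0.00664% in the ganglion cell layer, 0.0266% in the whole retina, 0.0133% on average and 0.0266% in the F test. On average over tissues (10 arrays against 10), dark minus light was 0.27 ± 0.24 for Gnat1, 0.23 ± 0.19 for Gnb1, 0.0022 ± 0.16 for Gngt1 and -0.022 ± 0.25 for Pdc. The cone genes gave 0.0074 ± 0.085 for Gnat2, 0.17 ± 0.13 for Gnb3 and -0.17 ± 0.12 for Gngt2. Adjusted p ran from 0.885 to 1.00 (limma), and none had an unadjusted p under 0.05. Nor did a member pass without the 5 arrays with Y-linked signal, all of which were light adapted. The 95% intervals bound what this size of study could show: from -0.17 to 0.19 for Gnat2, the narrowest, and from -0.56 to 0.52 for Pdc, the widest. The signs of the 3 values nearest 0 (Gngt1, Gnat2 and Pdc) turned under some other settings.

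In the photoreceptor layer itself every member's 2 dark arrays overlapped with its 2 light arrays. The differences there ran from -0.21 for Gngt2 to 0.07 for Gnb3, and no member had an unadjusted p under 0.05. The interval for Gnat1 in that layer, from -1.11 to 1.20, was still wide, since 2 arrays stood against 2. The whole retina gave values from -0.23 for Gngt1 (-0.23 ± 0.36) and Gnat2 (-0.23 ± 0.19) to 0.13 for Gnb3, and for Gngt1 and Gnat2 both dark arrays lay below both light arrays (11.1% of all genes did so).

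The widest gaps lay in the inner nuclear layer, where both dark arrays were above both light arrays for Gnat1, Gnb1, Gngt1 and Pdc, as for 11.9% of all genes. Gnat1 had read 82.9 and 119 in light and 335 and 633 in dark, a difference of 2.21 ± 0.55 (unadjusted p = 0.00084, adjusted p = 1, limma). Gnb1 differed by 1.33 ± 0.43 (unadjusted p = 0.00638), Pdc by 1.71 ± 0.57 (unadjusted p = 0.00797) and Gngt1 by 0.72 ± 0.36 (unadjusted p = 0.0639), all with an adjusted p of 1. These sizes moved with single arrays. Without dark-adapted replicate 2 they were 1.75 for Gnat1, 0.60 for Gnb1, 1.01 for Pdc and 0.22 for Gngt1, and without dark-adapted replicate 1 they were 2.67, 2.07, 2.42 and 1.22, and none passed. The cone genes Gnat2, Gnb3 and Gngt2 gave -0.12, 0.09 and -0.17 there. The rod marker median moved the same way on the same arrays, at 6.14 and 6.00 in light and 6.99 and 7.82 in dark. The summed intensity of the 13 rod markers was 1263 and 1418 in light and 1897 and 2681 in dark. In the rod cascade list, described next, the median difference in this layer was 0.69 with 0 of 15 genes passing, and in the cone list 0.01 with 0 of 8. Relative to the rod markers, Gnb1 in the inner nuclear layer stood at a mean of 1.17 in both light and dark, Pdc at 0.15 and 0.53, and Gngt1 at 0.13 and -0.49. Gnat1 stood at 0.24 and 0.89 in light and 1.40 and 1.49 in dark. The part of rod content in these differences was not tested beyond these values.

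In the ganglion cell layer Gnat1, Gnb1 and Pdc had values of the opposite sign to those in the inner nuclear layer. Gnat1 gave -0.77 ± 0.55, Gnb1 -0.64 ± 0.43, Pdc -1.21 ± 0.57 (unadjusted p = 0.0497) and Gnat2 -0.19 ± 0.19, each with an adjusted p of 1 (limma). One light-adapted array, replicate 2, was high in Gnat1 (843), Gnb1 (711) and Pdc (426). Its rod marker median was 7.63, against 6.29 on the other light array and 6.96 and 5.94 on the dark arrays. Without it the Gnat1 difference was 0.46, that of Gnb1 -0.11 and that of Pdc -0.24, so the size of all 3 and the sign of Gnat1 rested on this array. In the inner plexiform layer Gnat2 was 0.52 ± 0.19 (unadjusted p = 0.0137, adjusted p = 0.154), Gnb3 0.50 ± 0.30 and Gngt2 -0.55 ± 0.26 (adjusted p = 0.398 and 0.269), with the 2 dark arrays on 1 side of the 2 light arrays in each (18.3% of all genes higher, 23.4% lower). The light arrays of this layer are the pair with the lowest correlations among the layer arrays. In the F test Gnat1 had the smallest p of the members (unadjusted 0.0135, adjusted 0.738), followed by Pdc (unadjusted 0.0269) and Gnb1 (unadjusted 0.0583).

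**Figure D4:**
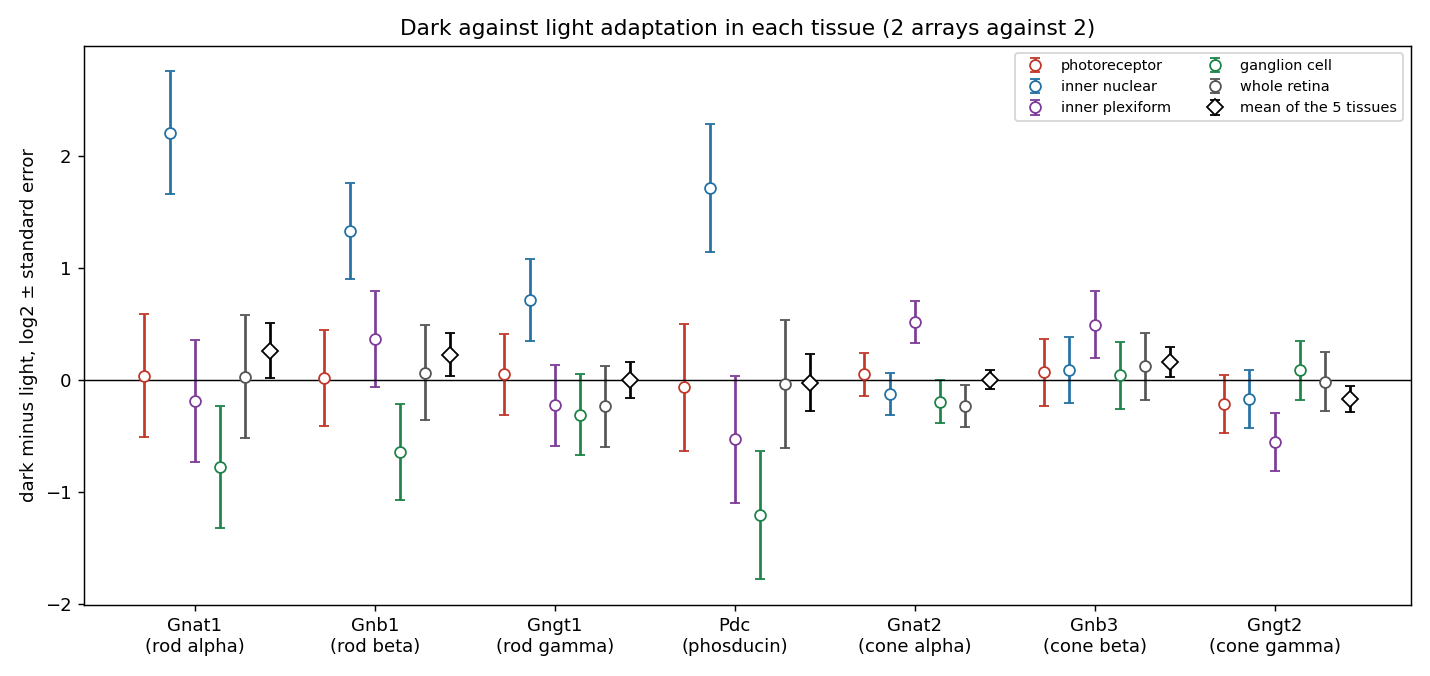
Dark minus light on the log2 scale (vertical axis, with the standard error of the limma fit) for the 7 genes in each of the 5 tissues, 2 arrays against 2, and as the mean over tissues (diamonds). No point passed an adjusted p of 0.05; the rod genes and Pdc were above 0 in the inner nuclear layer (0.72 to 2.21) and Gnat1, Gnb1 and Pdc below 0 in the ganglion cell layer (-0.64 to -1.21), where without 1 light-adapted array they were 0.46, -0.11 and -0.24.

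Relative to the cone markers, Gnat2 was higher in dark than in light by 0.52 (exact permutation p = 0.00514, adjusted p = 0.0171) and Gnb3 by 0.68 (exact permutation p = 0.00412, adjusted p = 0.0171), with the same sign in 5 of 5 tissues. The test permuted arrays within tissues over 7776 arrangements, with a smallest possible p of 0.000257. Both calls were lost with the 5 Y-linked arrays left out (0.58 and 0.72, adjusted exact permutation p = 0.165 and 0.148), and that of Gnat2 without the light-adapted inner plexiform arrays (0.52, adjusted exact permutation p = 0.0566). They also rest on the markers: 1 of the 7, the short-wavelength opsin Opn1sw, was itself lower in dark by 2.48 on the log2 scale (-2.48 ± 0.11, limma). With Opn1sw left out of the marker list, Gnat2 gave -0.13 and Gnb3 0.03 (adjusted exact permutation p = 0.616 and 0.877). Gngt2 relative to the same markers gave 0.35 and did not pass (adjusted exact permutation p = 0.255). No rod gene relative to rod markers, and no rod minus cone pair, passed between dark and light (adjusted exact permutation p = 0.561 to 0.820).

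The partners of transducin were then counted, again for the photoreceptor layer against the mean of the other 3. In the rod cascade, the enzymes, channels and regulators that act with rod transducin, 15 of 15 measured genes were higher, with a median of 2.49. Rcvrn (recoverin, a calcium sensor of photoreceptors) was higher by 3.49 ± 0.22 and Gucy2f (a guanylate cyclase that remakes cGMP) by 3.40 ± 0.28. Guca1a (an activator of guanylate cyclase in photoreceptors) was higher by 2.95 ± 0.19 and Slc24a1 (the rod sodium-calcium-potassium exchanger) by 2.59 ± 0.13. In the cone cascade 6 of 8 were higher, with a median of 1.81. They included Arr3 (cone arrestin, 3.27 ± 0.24), Pde6c (the cone phosphodiesterase, 3.14 ± 0.18), Opn1sw (3.09 ± 0.15) and Opn1mw (the medium-wavelength opsin, 2.46 ± 0.20). Cnga3 and Slc24a2, a channel subunit and an exchanger of cones, did not pass. All genes named in these counts had an adjusted p under 0.05 unless said otherwise.

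Genes that fold, modify or chaperone G protein subunits formed a further list, and 11 of its 20 measured genes were higher in the photoreceptor layer, with none lower and a median of 0.66. Unc119, which binds the lipid tail of the alpha subunit and carries it through the cell, was higher by 2.14 ± 0.20 (adjusted p = 1.89e-06, limma). Gpsm2, a GoLoco protein that binds inhibitory alpha subunits, was higher by 1.45 ± 0.20, Ric8b, a chaperone for alpha subunits, by 1.23 ± 0.17, and Cct3, a subunit of the chaperonin that folds beta subunits, by 0.87 ± 0.16. The genes that did not pass ranged from -0.08 to 0.49.

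Other G protein subunits served as a contrast. Of the 21 measured, 2 were higher, 4 lower and 15 did not pass, with a median of -0.14. Gnb5, the atypical beta subunit that partners the rod regulator Rgs9, was higher by 1.66 ± 0.19. Lower were Gnao1 (-1.93 ± 0.25), the alpha subunit common in neurons, Gng3 (-1.38 ± 0.18), a neuronal gamma subunit, and Gng13 (-0.69 ± 0.16). Among the ON bipolar genes 5 of 10 were lower and 2 higher, with a median of -0.65; the 2 higher were Gnb5 and Rgs9bp, which also belong to the rod cascade. Grm6 was at -0.89 ± 0.14. In dark against light averaged over tissues, Opn1sw was the only gene of these 5 lists that passed.

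**Figure D5:**
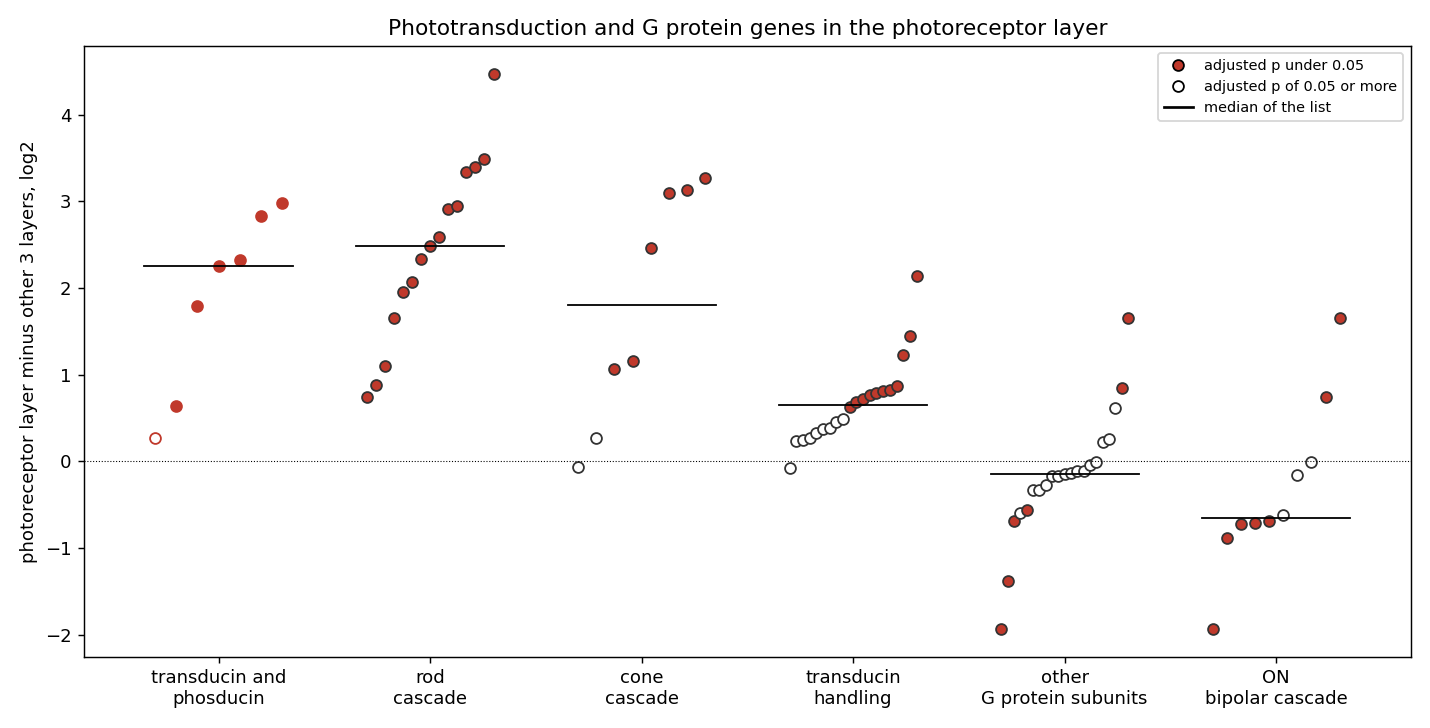
Photoreceptor layer minus the mean of the other 3 layers (log2, vertical axis), 1 point per gene, for the 7 genes and 5 lists of related genes; filled points passed an adjusted p of 0.05 in the limma fit and bars are medians. The median was 2.26 for the 7 genes, 2.49 for the rod cascade, 1.81 for the cone cascade, 0.66 for genes that handle G proteins, -0.14 for other subunits and -0.65 for the ON bipolar cascade.

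The tested genes whose log2 intensities were most like each member over the 20 arrays were found by Pearson correlation, a measure that the split between photoreceptor-rich and inner arrays dominates. For Gnat1 they were Pde6a (0.97), Cnga1 (0.97) and Rp1 (0.97), and for Pdc Pde6b (0.99), Pde6a (0.98) and Rgs9 (0.98). Each of these genes was among the rod markers or in the rod cascade list. Gngt1 was nearest to Dgke, Mak and Wdr17 (0.96 to 0.97), and Gnb1 to Rhot1, Ap2a2 and Zfp644 (0.96). Gnat2 was nearest to Lyar (0.95), Tma7 (0.94) and Dpf3 (0.94). For Gnb3 (Fam160a1, Pgrmc2 and Mir15a, 0.84 to 0.85) and Gngt2 (S1pr2, Tnni3 and AI507597, 0.86) the nearest genes were less alike.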

How the data were processed

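RNA of 4 laser-captured retina layers and of whole retina was measured on 20 arrays. The authors processed them with GCRMA, per the submitters' processing notes (version not given there), which corrects background and normalizes between arrays. The deposited values are linear intensities, a scale judged from their range. Such background correction acts mainly on dim probe sets.

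Intensities below a floor of 8 were raised to it before taking log2. Probe sets with log2 over 5 on at least 2 arrays and exactly 1 symbol in the platform table were kept, and the one with the highest mean stood for its gene (15057 genes). One fit in limma 3.58.1 (R 4.3.3) had 10 group means, 10 residual degrees of freedom and a trend on intensity. Two-sided p-values were adjusted per comparison (Benjamini-Hochberg), and those under 0.05 passed. Ratios of genes on an array were tested by exact permutation. The fit was tested on simulated data.

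The members and gene lists were chosen with earlier results of these data known. Named were all 7 members, the 3 genes most correlated with each, up to 4 genes per list by smallest p in the photoreceptor layer comparison or in dark against light averaged, and ON bipolar genes beside Gnb3. Other normalization, floor, filter, probe set rule, variance model, weights, block and array sets were tried. The number of arrays limits the precision. No array was dropped or imputed.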

Additional observations from a re-analysis of the deposited data

Results flagged for a closer look

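In the ganglion cell layer, 1 of the 4 Gnb1 values lay far from the rest: the light-adapted replicate 2 read 711 and the other 3 arrays 293 to 338, a gap of 0.841 of the whole range on the log2 scale. Chance alone gives such a gap in about 1 of 20 sets of 4 like arrays. All 7 members were screened in all 5 tissues, so 1 such gap is near what chance gives. Each set also mixed light-adapted and dark-adapted arrays. The rod marker median of that array, 7.63, was also the highest of the layer.

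In 4 further cases both dark arrays lay above both light arrays in 1 tissue and below them in another. Dark minus light of Gnat2 was larger in the inner plexiform layer than in the ganglion cell layer by 0.712 and than in the whole retina by 0.752 (log2). That of Gnb1 was larger in the inner nuclear than in the ganglion cell layer by 1.97, and that of Gngt1 was larger in the inner nuclear layer than in the whole retina by 0.951. These pairwise differences were not tested. All members were screened in all 5 tissues, and the share of all genes with such opposite orders was not computed. With 2 arrays against 2, such an order in 1 tissue was common among all genes. Both dark arrays lay above both light arrays for 11.9% in the inner nuclear and 18.3% in the inner plexiform layer. They lay below for 11.1% in the whole retina. The share with dark below light in the ganglion cell layer, on which cases of Gnat2 and Gnb1 draw, was not computed. The 4 cases may thus be no more than chance gives. The F test over all 5 tissues (limma) gave no member an adjusted p under 0.738.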

How the results depend on the processing

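Of 2878 recomputed values, 2744 were scored as unchanged. For a single difference this meant the same direction and the same side of the threshold. A count of calls was scored as unchanged when it was equal or close to the count reported, so a count could move by 1 and still be scored so. Gnat1, Gnat2, Gnb1, Gngt1 and Pdc were higher in the photoreceptor layer than in the other layers under all 34 alternatives. The number of members called in whole retina against photoreceptor layer (1) was 2 with quantile normalization and 0 with a filter at log2 over 7 (which removes Gngt2), without the arrays with Y-linked signal, or in dark-adapted or light-adapted arrays alone, and 0 to 1 leaving out 1 array. In inner nuclear against inner plexiform layer (2) it was 1 with array weights or without the Y-linked arrays, 0 with the arrays of that comparison alone, without the light-adapted inner plexiform arrays or in dark-adapted arrays alone, and 1 to 2 leaving out 1 array. In inner plexiform against ganglion cell layer (0) it was 1 with the filter at log2 over 7, 1 with the replicate number as a block (Gngt2, 0.62, adjusted p = 0.039), and 0 to 1 leaving out 1 array. The replicate block changed no other count of members called; replicate deviations correlated between groups at 0.0059 to 0.479, above 0 in all 45 group pairs but over 0.1 in 32. The labels tie no number to an animal or batch and not every pair was over 0.1, so the numbers were not treated as pairing the arrays. The permutation tests of ratios were not rerun with the replicate number as a stratum. As a hint from the data, not the design, Gnb1 was higher on replicate 2 than on replicate 1 in 10 of 10 groups. It was the most extreme of the members, and the others ran from 3 (Gngt2) to 8 (Gnat1) of 10. The share of all genes with such an order was not computed. Calls of subunits relative to markers in dark against light (2) were 0 without strata, with the mean of the markers, without Opn1sw or without the Y-linked arrays, and 1 without the light-adapted inner plexiform arrays. Rod minus cone calls in the photoreceptor layer (2) were 1 to 2 leaving out 1 array. Of all genes, 1949 passed in the photoreceptor layer against the others, but 2942 with array weights, 1020 without the Y-linked arrays, and 594 and 532 in dark-adapted and light-adapted arrays alone. Between inner nuclear and inner plexiform layer 730 passed, but 1183 with the replicate block, 390 with the filter at log2 over 7, 309 with array weights, 149 without the Y-linked arrays, 105 with the arrays of that comparison alone and 1 in dark-adapted arrays alone. Over all settings the count of genes that passed ran from 202 to 1248 (802 as reported) for photoreceptor against inner nuclear, 465 to 4006 (3218) against inner plexiform and 280 to 1630 (1154) against ganglion cell layer. It ran from 38 to 3360 (1568) for whole retina against photoreceptor layer, 3 to 154 (69) and 2 to 1047 (467) for inner nuclear and inner plexiform against ganglion cell layer. For dark against light it ran from 2 to 12 (7), 0 to 1 (0), 3 to 781 (276), 0 to 5 (1) and 1 to 4 (4) in the photoreceptor, inner nuclear, inner plexiform and ganglion cell layers and whole retina, 1 to 7 (2) on average and 2 to 27 (4) in the F test.

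Signs turned as follows. Averaged dark minus light of Gngt1 was -0.0049 with median centring, -0.0037 with log2 of the intensity plus 16, and -0.12 to 0.13 leaving out 1 array. That of Gnat2 was -0.0016 with plus 16, -0.017 without the Y-linked arrays, -0.12 without the light-adapted inner plexiform arrays, and -0.035 to 0.050 leaving out 1 array. That of Pdc was 0.17 and 0.10 without those same arrays and -0.21 to 0.17 leaving out 1 array. Gngt2 in photoreceptor against inner plexiform layer was 0.15 without the light-adapted inner plexiform arrays, 0.044 in dark-adapted arrays alone and -0.30 to 0.053 leaving out 1 array. Relative to markers in the photoreceptor layer, Gnat2 was 0.048 with plus 16 and Gnat1 -0.024 with quantile normalization (-0.018 to 0.17 leaving out 1 array). Without Opn1sw, dark minus light relative to cone markers was -0.13 for Gnat2 and -0.31 for Gngt2. Leaving out 1 array gave -2.0 to 0.46 for Gnat1 dark minus light in the ganglion cell layer, -0.042 to 0.29 for Gnb3 in photoreceptor against inner nuclear layer, -0.061 to 0.19 for Gnb1 minus Gnb3 and -0.21 to 0.016 for Gngt1 relative to rod markers in dark against light. The cause of these changes was not tested. The settings without Opn1sw, the quantile normalization of ratios, the ratio tests without Y-linked or light-adapted inner plexiform arrays and the fits within 1 adaptation were chosen after seeing the data. Gngt2 lay near the median intensity of an array, which limits its comparisons.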

Other observations

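Beyond the 4 genes of the transducin handling list named above, 7 more passed in the photoreceptor layer, named here after their values were seen. The chaperonin subunits Cct4, Cct5 and Cct6a were higher by 0.78 ± 0.15, 0.68 ± 0.16 and 0.82 ± 0.21, and Pdcl, the phosducin-like cochaperone of that complex, by 0.72 ± 0.20. Of the enzymes that attach or finish the lipid tail of gamma subunits, Icmt, a carboxyl methyltransferase, was higher by 0.77 ± 0.17. Pggt1b, a geranylgeranyl transferase subunit, was higher by 0.81 ± 0.24. Klhl18, a ubiquitin ligase adaptor, was higher by 0.63 ± 0.14. The farnesyl transferase genes Fnta (0.27 ± 0.19) and Fntb (0.25 ± 0.19) and the prenyl protease Rce1 (0.33 ± 0.15) did not pass (limma, Benjamini-Hochberg adjusted p = 0.389, 0.453 and 0.174).

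In dark against light in the inner nuclear layer, 4 rod cascade genes, chosen after their values were seen, gave differences over 1 that did not pass. Cnga1, a rod channel subunit, gave 2.75 ± 0.87, Pde6a 1.77 ± 0.59, Pde6b 1.72 ± 0.46 and Slc24a1 1.02 ± 0.23, each with an adjusted p of 1 (limma).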
